A study of Mus musculus with 6 samples.

Results

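The mouse genes whose symbol is Zfp followed by exactly 3 digits were described in ribosome-bound RNA of brain hemispheres with and without stroke. The symbol alone, in the deposited table, chose them: 250 of its 12968 genes match, and 238 of the 250 averaged 10 or more across libraries and were tested. The 12 others had means of 5.80 to 9.96 and were not tested. Every row of the table reaches 10.6 or more in some library, so Zfp genes that stay lower throughout are not analysed here. The libraries came from RiboTag immunoprecipitation, in which an epitope-tagged ribosomal protein is expressed in cells with Cre recombinase and the RNA on the tagged ribosomes is pulled down. All 6 mice therefore share the RiboTag procedure; the series title names the astrocyte transcriptome, and the labels give no Cre driver, strain, sex or age. The middle cerebral artery was occluded for 1 h in 3 mice (MCAO), 3 control mice had no occlusion, and the mice were killed after 3 days. The left hemisphere's middle section was used in both groups, the RNA of each animal was precipitated in repeat and pooled, and no sham operation is described.

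Zfp is the mouse name stem for zinc finger proteins, most of which carry fingers of the C2H2 type, short loops held by a zinc ion that read DNA or bind RNA and proteins. Many genes with this stem encode KRAB zinc finger proteins, which bring the corepressor Trim28 (KAP1) and the histone methyltransferase Setdb1 to retroelements and other targets to form heterochromatin. Such genes lie in tandem clusters of related copies, while others are single, old genes with roles in neural development, promoter binding or ribosome quality control. Because neighbouring copies resemble each other and the sources used here do not say how ambiguous reads were treated, the values of clustered members are uncertain where copies could share reads.

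Values are read counts scaled by 1 factor per library, called scaled reads below, and are not corrected for length, so they are compared within a gene only. Recovered reads per library ran from 882263 in MCAO 2 to 9519548 in control 1, and reads of the 250 members from 4370 to 51382 in the same libraries. The median member had only 10 reads in MCAO 2, 20 and 23 in controls 2 and 3, 43.5 and 52.5 in MCAO 3 and MCAO 1, and 118 in control 1. Of the tested members, 122 had at least 10 reads in every library. The labelled tissue was checked on fixed markers. Those of astrocytes, neurons, striatal neurons, oligodendrocytes and microglia were all in the table, and none was at the deposited floor in all 3 controls.

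As a set the Zfp genes stood slightly lower after MCAO, and 1 single gene passed the test. The median log2 change of the 238 members, MCAO minus control, was -0.25, against -0.01 for all 12549 genes tested. Negative log2 changes were found in 173 members (72.7%), while 51.3% of all genes had them. All 3 MCAO libraries lay below all 3 controls in 50 members (21.0%), compared with 12.5% of all genes, and above them in 6 members (2.52%), compared with 12.4%. The 6 were Zfp111, Zfp414, Zfp524, Zfp568, Zfp580 and Zfp960. Members were chosen by name, and no test over the set was made.

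Single members rarely passed the test. By limma with Benjamini-Hochberg adjustment over all genes, 1 of 238 members was called at an adjusted p under 0.05 and it fell, where 0.789% of all genes were called lower, 2.3% higher and 3.08% in either direction. At an unadjusted p under 0.05 there were 39 members (16.4%), while 19.3% of all genes reached it. The 95% interval of the log2 change lay below 0 in 32 members, above 0 in 7 and held 0 in 199. It lay within -1 to 1, so that a doubling and a halving were both outside it, in 105 members. The median width of that interval to either side was 0.68 for members and 0.49 for all genes, and the median SD of log2 values was 0.32 among controls and 0.33 among MCAO libraries for members, against 0.24 and 0.25 for all genes.

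**Figure D1:**
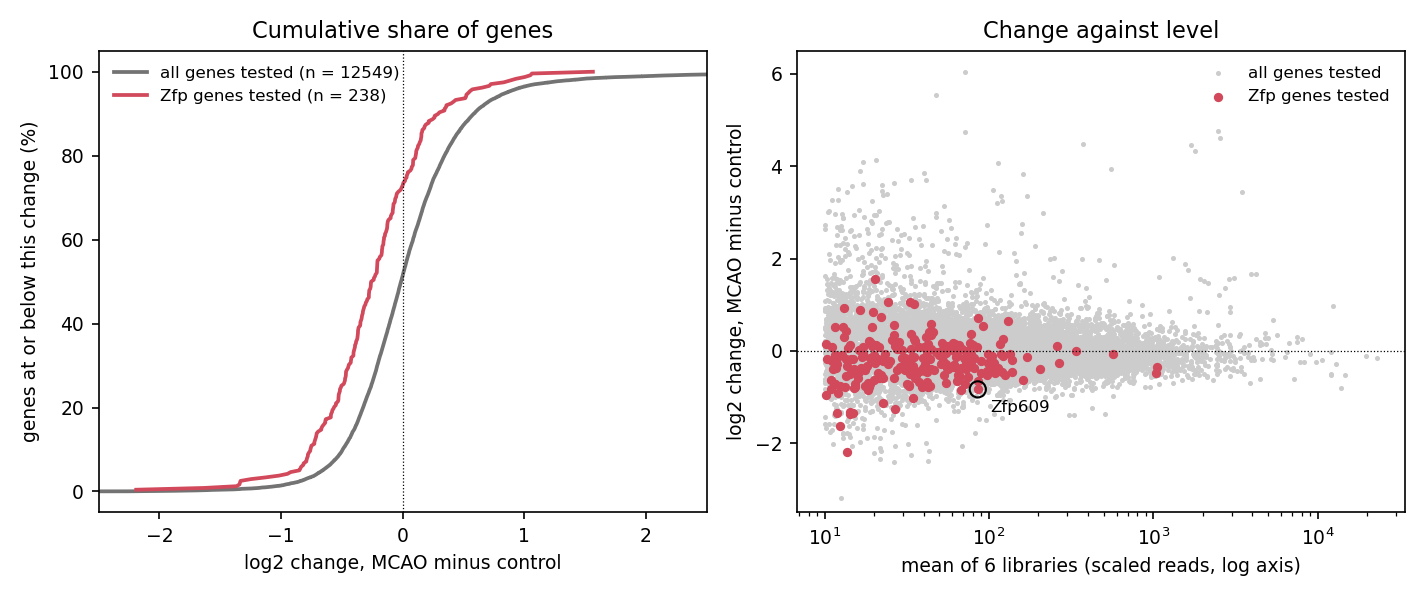
Left, cumulative share of genes (vertical axis, %) at or below each log2 change, MCAO minus control (horizontal axis, drawn from -2.5 to 2.5), for the 238 Zfp genes tested and all 12549 genes tested. Right, log2 change against the mean of the 6 libraries in scaled reads (log axis) for the same genes, with the called member Zfp609 circled. The Zfp curve crosses 0 at 72.7% and that of all genes at 51.3%.

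The lower level was present across the range of read numbers. Members with a mean of 10 to 20 scaled reads (67 genes) had a median log2 change of -0.32, those of 20 to 50 (86 genes) -0.22, those of 50 to 100 (59 genes) -0.26 and those of 100 and over (26 genes) -0.23. All tested genes in the same ranges had medians of 0.07, 0.05, 0.02 and -0.05. In the highest range 21 of the 26 members had a negative log2 change, 9 lay lower in all MCAO libraries than in all controls (34.6%, against 17.1% of all genes there), and none lay higher.

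The share of all recovered reads that fell on members was also lower in the MCAO libraries. It was 0.540%, 0.564% and 0.556% in controls 1, 2 and 3, and 0.485%, 0.495% and 0.458% in the MCAO libraries of the same numbers. The groups did not overlap, and the Wilson 95% intervals, which cover counting error only, ran from 0.535% to 0.576% over the controls and from 0.452% to 0.510% over the MCAO libraries. The mean went from 0.553% ± 0.0125 to 0.480% ± 0.0191 (SD, n = 3 each), a ratio of 0.867. Zfp106 and Zfp365 held the most reads, and without both the means were 0.467% ± 0.0104 and 0.413% ± 0.00870. Relative to each gene's mean over the 6 libraries, the median member stood at 0.11, 0.15 and 0.17 on the log2 scale in controls 1, 2 and 3 and at -0.07, -0.11 and -0.12 in MCAO 1, 2 and 3. Over all genes this value was between 0.00 and 0.02 in each library.

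Other DNA-binding zinc finger genes gave similar values. The 64 tested genes whose symbol starts with Zfp and a digit but falls outside the rule, through 1 or 2 digits or a letter suffix, had a median log2 change of -0.28, with 49 negative. For 37 Zbtb genes, whose proteins join zinc fingers to a BTB domain, the median was -0.34, with 31 negative. For 19 Zscan and Zkscan genes, which add a SCAN domain, it was -0.24, with 14 negative. The 17 Zc3h genes, whose CCCH fingers bind RNA, had a median of -0.19 with 10 negative, and the 20 Zdhhc genes, which encode palmitoyltransferases, had one of 0.07 with 9 negative. None of the genes in these families was called by limma, where 3.08% of all genes were. At an unadjusted p under 0.05 there were 11, 10, 3, 1 and 3 in the order given. These are 17.2%, 27.0%, 15.8%, 5.88% and 15% of the families, against 19.3% of all genes. These families were chosen after earlier results were known, and differences between them were not tested.

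**Figure D2:**
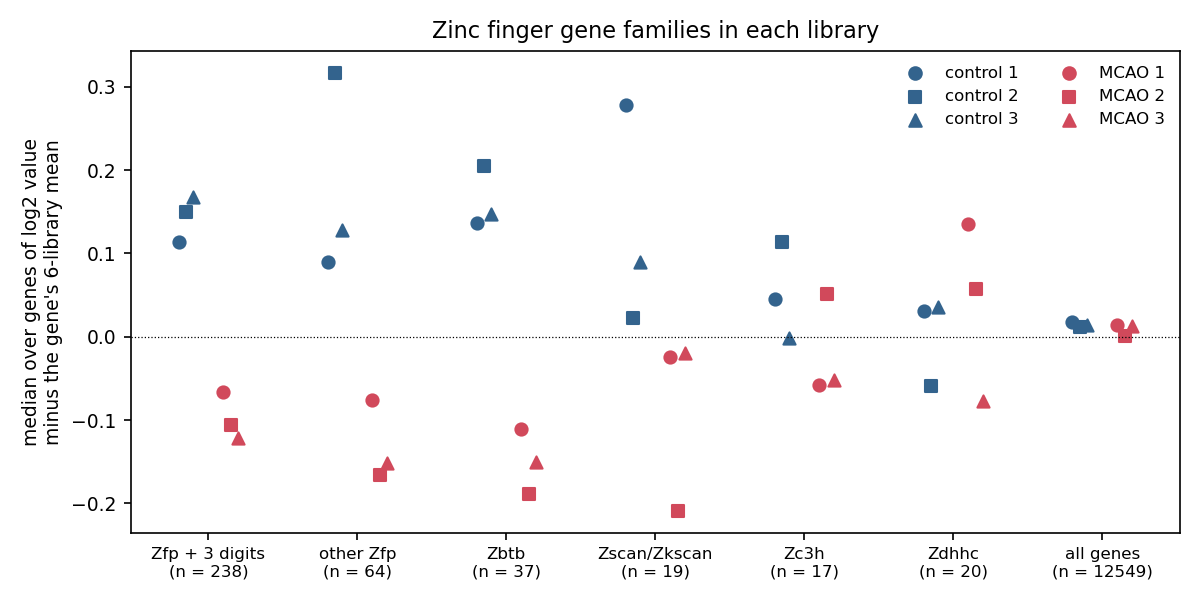
Median over the genes of each family of the log2 value minus the gene's mean over the 6 libraries (vertical axis), for each library, with controls in blue and MCAO libraries in red. The 3 controls lie above the 3 MCAO libraries for genes named Zfp and 3 digits, other Zfp, Zbtb and Zscan/Zkscan genes, while Zc3h and Zdhhc overlap and all genes stay between 0.00 and 0.02.

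Markers of several cell types moved in the same libraries. Summed over 11 microglia markers, scaled reads were 417 to 561 in controls and 1543 to 2022 after MCAO. All 11 had positive log2 changes and 7 were called higher. Over 9 markers of striatal neurons the sums were 2288 to 2459 and 996 to 1442, with all 9 negative and 7 called lower. Over 8 oligodendrocyte markers the sums were 8049 to 9203 and 11815 to 15256, with all 8 positive and 3 called higher. Over 5 oligodendrocyte precursor markers they were 614 to 854 and 991 to 1342, with 4 positive and 1, Cspg4, called higher. Over 4 dividing-cell markers they were 10.1 to 24.1 and 90.2 to 149, and all 3 tested were called higher (median log2 change 3.40). Over 5 endothelial and mural markers they were 193 to 281 and 169 to 219, and none was called. The sums of 10 general neuronal markers (15152 to 17628 and 14296 to 17075) and of 10 astrocyte markers (24168 to 38748 and 28391 to 37707) overlapped between groups. For astrocyte markers control 2 (24168) lay well below control 1 (38748) and control 3 (37326.5). Of both lists only the astrocyte filament gene Gfap was called higher, and none was called lower. The part of these cell types in the lower Zfp level was not tested, and in tissue RNA of this kind fewer cells of a type and less RNA per cell cannot be told apart.

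Zfp609, the called member, encodes a nuclear protein that works with the cohesin loader Nipbl and the Integrator complex in cortical neural progenitors. Its values were 108, 114 and 107 scaled reads in controls 1, 2 and 3 and 58.8, 71.5 and 54.0 in MCAO 1, 2 and 3. The controls lay close together and well above every MCAO library. Behind these values are 376, 64 and 71 reads in controls 1, 2 and 3. MCAO 1, 2 and 3 held 100, 23 and 81 reads. Zfp609 (chromosome 9, 65691578 to 65827564) fell by 0.83 on the log2 scale (SE 0.20, limma adjusted p = 0.0394; means 110 ± 3.42 and 61.4 ± 9.08, SD, n = 3 each). The call held by edgeR (adjusted p = 0.0206) and DESeq2 (0.0211). It was lost with no intensity trend (0.0860) and when control 1 (0.122), control 2 (0.0849), control 3 (0.0979), MCAO 1 (0.0893) or MCAO 3 (0.138) was left out, where the log2 change lay between -0.85 and -0.75. Its paralogue Zfp608 stood at 47.5, 55.0 and 51.3 in controls and 56.5, 52.9 and 44.0 after MCAO, with overlapping groups and a log2 change of -0.01 (95% interval -0.52 to 0.50).

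Among regulators that bind promoters or act in signalling, the related pair Zfp148 and Zfp281, which bind GC-rich promoters, both had negative values. Zfp148 had 230, 238 and 228 scaled reads in controls and 189, 168 and 175 after MCAO, with no overlap (log2 change -0.38, SE 0.15, adjusted p = 0.179). Zfp281 had 87.8, 114 and 112 against 85.9, 59.1 and 79.3 (-0.48, SE 0.21, adjusted p = 0.236), also without overlap. Zfp292, first described as a pituitary growth hormone regulator, had 84.6, 94.0 and 87.5 against 62.4, 49.8 and 68.6 (-0.56, SE 0.21). Every MCAO library lay below the controls in this gene too. Zfp451, a SUMO ligase gene, had 126, 195 and 157 against 121, 112 and 112 (-0.45, SE 0.19). Zfp219, which encodes a partner of Sox9, went the other way, with 122, 94.0 and 81.5 in controls and 120, 230 and 134 after MCAO (0.65, SE 0.24, adjusted p = 0.164), and its groups overlapped. On this list 9 of 13 genes were below 0 in log2 change, the median was -0.15, and Zfp609 alone was called. An unadjusted p under 0.05 was reached by 6 (46.2%), against 19.3% of all genes.

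Members known from neural and glial development included some of the best measured. Zfp365, which encodes a centrosomal protein that binds DISC1, had 1201, 1183 and 1213 scaled reads in controls and 975, 946 and 698 after MCAO. The controls had an SD of 15.1 and all lay above the MCAO libraries, and the log2 change of -0.47 (SE 0.16, adjusted p = 0.118) was not called. Zfp462, a heterochromatin-associated gene of neural development, had 87.5, 117 and 109 against 65.3, 56.0 and 77.9 (-0.65, SE 0.21, adjusted p = 0.118), again without overlap. The EBF partner genes Zfp423 (101 ± 25.9 and 95.4 ± 25.6 scaled reads, SD, n = 3 each) and Zfp521 (66.9 ± 16.9 and 69.5 ± 21.5) differed between groups by less than their spread. The striatal development gene Zfp503 stood at 20.9 ± 13.5 in controls, where its 5.32 in control 2 is 3 reads, and 20.1 ± 10.6 after MCAO, and its 95% interval of -1.16 to 1.41 is too wide to show a doubling or a halving at this depth. Its relative Zfp703 had 94.97, 65.6 and 61.9 against 96.5, 84.0 and 149 (0.54, SE 0.25, adjusted p = 0.252). Zfp488, an oligodendrocyte differentiation gene, had 15.5 ± 8.06 and 12.05 ± 5.73, with 6 reads in MCAO 2. Its 95% interval of -1.43 to 0.79 includes the median log2 change of the oligodendrocyte markers, 0.61. On this list 8 of 11 genes were below 0, the median was -0.16, and none was called. At an unadjusted p under 0.05 there were 3 (27.3%, against 19.3% of all genes).

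Chromatin and retroelement silencing genes were below 0 in 9 of 12 tested, the median was -0.26, and none was called. Of the 12, 2 (16.7%) had an unadjusted p under 0.05, against 19.3% of all genes. Zfp516, a gene of the brown fat programme, had 86.6, 72.7 and 73.9 scaled reads in controls and 35.9, 49.8 and 64.6 after MCAO (-0.66, SE 0.25, adjusted p = 0.173), with no overlap. The next 3 encode partners of the chromatin reader Zmynd8. Zfp592 had 120, 85.1 and 145 against 68.8, 84.0 and 84.6 (-0.53, SE 0.22), Zfp687 had 123, 78.1 and 160 against 74.7, 115 and 88.6 (-0.33, SE 0.26), and Zfp532 had 110, 121 and 118 against 80.0, 106 and 107 (-0.26, SE 0.19). Control 2 was the lowest control for Zfp592 and Zfp687, and with control 2 and MCAO 2 left out both were called (limma adjusted p = 0.0443 each). In that fit 559 of 12539 genes were called. Zfp638, which recruits the HUSH silencing complex, was at 128 ± 19.2 and 101 ± 27.9. Zfp809, a silencer of murine retroviruses, is not among the genes of the table.

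A further list holds genes of RNA binding, ribosomes and the spindle. Zfp598, the ubiquitin ligase that marks collided ribosomes, had 61.6, 81.6 and 51.3 scaled reads in controls and 77.7, 62.2 and 48.0 after MCAO, with overlapping groups and a log2 change of -0.05 (95% interval -0.60 to 0.50). The large subunit maturation genes Zfp622 and Zfp593 stood at 111 ± 36.1 and 21.2 ± 5.05 in controls and at 134 ± 53.9 and 31.8 ± 8.56 after MCAO, with intervals of -0.35 to 0.88 and -0.20 to 1.31. Zfp106, an RNA-binding protein gene needed to maintain motor neurons and muscle, had 1073, 1185 and 1242 against 877, 1129 and 783 (-0.34, SE 0.16, adjusted p = 0.261). MCAO 2 overlapped with the controls there. None of the 8 genes of this list was called, and none reached an unadjusted p under 0.05, where 19.3% of all genes did. Of the 8, 6 were below 0, the median being -0.12.

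**Figure D3:**
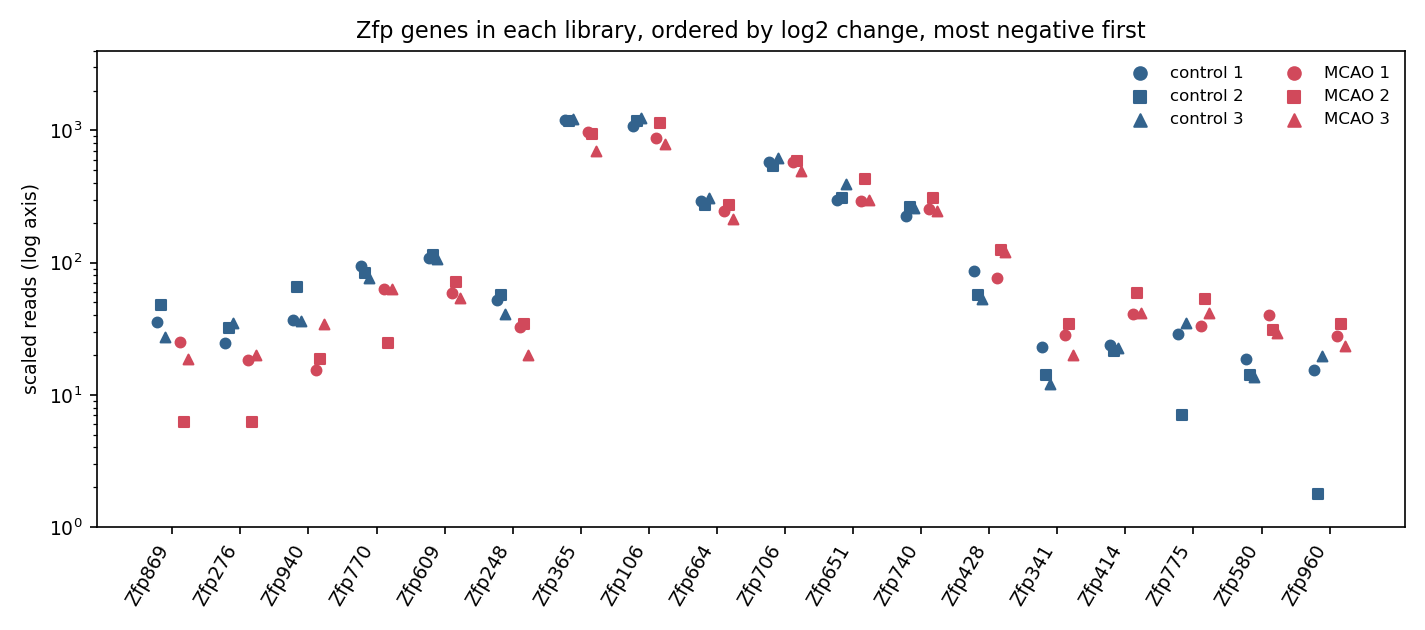
Scaled reads (log axis) in each of the 6 libraries for the called member, the 6 most positive and 6 most negative members with a mean of at least 20 and the 6 members with the most reads, ordered by log2 change from Zfp869 at -1.25 to Zfp960 at 1.57. Controls are blue and MCAO libraries red, with 1 marker shape per replicate number, which pairs no animals.

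Among members averaging 20 or more, those with the most negative log2 changes included some with few reads in MCAO 2. Zfp869 had 35.4, 47.9 and 27.2 scaled reads in controls and 25.3, 6.22 and 18.6 after MCAO (-1.25, SE 0.46). Zfp276 had 24.8, 31.9 and 34.7 against 18.2, 6.22 and 19.98 (-1.13, SE 0.45). In both genes 6.22 scaled reads are 2 reads of MCAO 2, the shallowest library. Zfp940 (-1.02, SE 0.37), Zfp770 (-0.85, SE 0.32) and Zfp248 (-0.79, SE 0.30) were the others beside Zfp609, and of these 5 none was called, with adjusted p of 0.154 to 0.189. MCAO libraries lay below the controls in all 5, as they did in 12.5% of all genes, and the 5 were picked for their negative values. Chosen after their values were seen, Zfp704 had 174, 204 and 208 against 149, 106 and 125 (-0.63, SE 0.18, adjusted p = 0.0744) and Zfp871 had 15.5, 28.4 and 24.1 against 9.41, 3.11 and 2.00. Zfp871 rests on 16, 1 and 3 reads in the MCAO libraries, and its log2 change of -2.19 (SE 0.60, adjusted p = 0.0634) depends on the pseudocount. It was called with a pseudocount of 5.

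Positive values were fewer, and none was called. Zfp414 had 23.9, 21.3 and 22.6 scaled reads in controls and 40.6, 59.1 and 41.3 after MCAO, without overlap (1.00, SE 0.30, adjusted p = 0.0862). Zfp580 had 18.7, 14.2 and 13.6 against 40.0, 31.1 and 29.3 (1.06, SE 0.35, adjusted p = 0.115), with every MCAO value above the controls. Control 2, control 3 and MCAO 2 held only 12, 15 and 19 reads of Zfp414 and 8, 9 and 10 of Zfp580. Zfp960 had 15.5, 1.77 and 19.6 against 27.7, 34.2 and 23.3 (1.57, SE 0.63), and its 1.77 is 1 read of control 2. Zfp775 (1.05, SE 0.48), Zfp428 (0.71, SE 0.25) and Zfp341, an activator of STAT3 transcription (0.73, SE 0.39), had adjusted p of 0.142 to 0.336 and overlapping groups. Among the 6 members with the most reads, Zfp706 (577 ± 44.8 and 552 ± 48.1), Zfp651 (335 ± 51.6 and 339 ± 78.1) and Zfp740 (250 ± 22.8 and 269 ± 33.6) differed by less than the spread between animals, while Zfp664 stood at 291 ± 15.7 and 243 ± 28.1 (-0.27, SE 0.15, adjusted p = 0.358).

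Genes of the corepressor machinery that KRAB zinc finger proteins use were also described. Of 39 listed genes 36 were tested. Limma called none of them, and 4 (11.1%) reached an unadjusted p under 0.05, against 19.3% of all genes. With library weights 1 was called, and edgeR and DESeq2 called none of the 36. Their median log2 change was -0.08, with 20 negative. Trim28 itself had 308, 271 and 249 scaled reads in controls and 348, 345 and 400 after MCAO, all above the controls (0.40, SE 0.15, adjusted p = 0.164). Setdb1 had 92.4, 97.6 and 98.1 against 72.4, 52.9 and 97.2 (-0.41, SE 0.23, adjusted p = 0.356), and MCAO 3 lay within the range of the controls. The chromatin remodeller gene Chd3 was at 3486 ± 533 and 2646 ± 722 and the histone chaperone gene Rbbp4 at 327 ± 91.5 and 449 ± 57.1. The difference between this list and the Zfp genes was not tested.

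Members were then placed on the genome. On the GRCm38.p6 assembly, the patched form of the mm10 build that the submitters name, all 250 members were located by symbol, on 20 chromosomes. Chromosome 7 held 64 of the tested members (median -0.16), chromosome 17 held 26 (-0.49, with 23 negative) and chromosome 8 held 21 (-0.37). With members joined where starts lay within 250000 bases of each other, 100 members fell into 18 runs of at least 3, and these had a median of -0.28 over 92 tested, against -0.22 for the 146 tested members outside runs. On chromosome 17, the run from Zfp948 to Zfp946 (21565816 to 22456689) had negative values in all 8 tested members, from -1.33 to -0.24. Its other member, Zfp995, was too low to be tested and lay higher after MCAO. It had 4.32, 3.55 and 1.51 scaled reads in controls and 5.29, 18.7 and 7.99 after MCAO. The run from Zfp871 to Zfp563 (chromosome 17, 32765496 to 33110707) had negative values in 7 of 8. In MCAO 2, Zfp758, Zfp948 and Zfp760 of the run that starts with Zfp948 rest on 1, 2 and 3 reads. The lowest median, -0.76, was in the run of Zfp868, Zfp964, Zfp869, Zfp963 and Zfp866 (chromosome 8, 69610654 to 69774911), with 4 of 5 negative. Zfp964, Zfp869 and Zfp963 of this run likewise rest on 1, 2 and 3 reads in MCAO 2. At the other end, the run from Zfp628 to Zfp580 (chromosome 7, 4915181 to 5053723) had a median of 0.28 with 5 of 6 positive. Members of a run are near copies or neighbours and not independent, so a shared sign counts as a description.

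**Figure D4:**
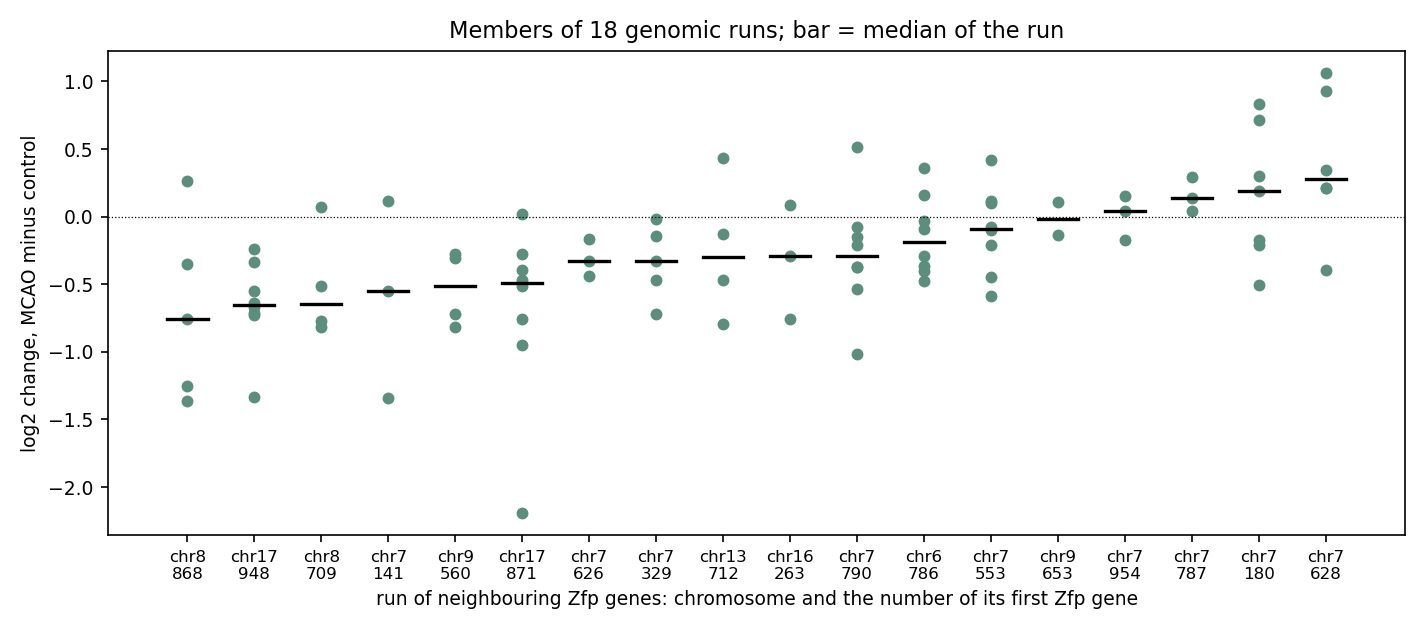
Log2 change, MCAO minus control (vertical axis), of each tested member in the 18 runs of neighbouring Zfp genes (horizontal axis, ordered by median), with a bar at the run's median. Medians go from -0.76 in the chromosome 8 run that starts with Zfp868 to 0.28 in the chromosome 7 run that starts with Zfp628.

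The promoters of these 2 outermost runs are shown because the members of each lie side by side and have medians of opposite sign, a choice made after the values were seen. Zfp868 has a further window, not shown, without a CCAAT box. Sequences are RefSeq windows of 300 bases, 250 before to 50 after an annotated start, on GRCm38.p6, printed 5′ to 3′ along the gene, with CCAAT boxes (CCAAT on either strand) in capitals and everything else in lower case. Windows were matched by symbol for all 5 members of the chromosome 8 run and 4 of the 6 in the chromosome 7 run. The chromosome 8 windows are as follows.
Zfp868, chr8:69625499-69625798, minus strand: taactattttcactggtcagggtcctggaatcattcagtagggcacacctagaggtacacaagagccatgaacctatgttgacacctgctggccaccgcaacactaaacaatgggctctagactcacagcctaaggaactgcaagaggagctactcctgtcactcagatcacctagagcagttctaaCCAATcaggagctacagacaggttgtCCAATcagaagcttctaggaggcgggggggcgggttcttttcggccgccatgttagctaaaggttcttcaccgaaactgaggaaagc
Zfp964, chr8:69654306-69654605, plus strand: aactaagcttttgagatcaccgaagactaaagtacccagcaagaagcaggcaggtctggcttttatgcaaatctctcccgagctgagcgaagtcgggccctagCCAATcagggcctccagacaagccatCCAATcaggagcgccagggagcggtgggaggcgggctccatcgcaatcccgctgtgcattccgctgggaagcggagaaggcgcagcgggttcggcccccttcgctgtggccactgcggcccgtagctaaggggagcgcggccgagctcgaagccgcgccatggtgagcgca
Zfp869, chr8:69716853-69717152, minus strand: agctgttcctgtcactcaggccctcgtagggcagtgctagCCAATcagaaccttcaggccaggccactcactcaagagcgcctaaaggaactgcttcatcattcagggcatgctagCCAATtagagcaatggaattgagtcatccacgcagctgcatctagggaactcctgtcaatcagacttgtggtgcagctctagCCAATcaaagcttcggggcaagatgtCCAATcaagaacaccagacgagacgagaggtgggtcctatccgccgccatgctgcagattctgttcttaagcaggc
Zfp963, chr8:69749913-69750212, minus strand: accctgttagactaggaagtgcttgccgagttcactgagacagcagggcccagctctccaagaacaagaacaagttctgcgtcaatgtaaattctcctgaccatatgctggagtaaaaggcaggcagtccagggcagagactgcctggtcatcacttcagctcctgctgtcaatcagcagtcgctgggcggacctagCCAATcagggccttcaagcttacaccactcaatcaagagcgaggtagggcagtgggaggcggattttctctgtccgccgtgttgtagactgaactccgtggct
Zfp866, chr8:69774862-69775161, minus strand: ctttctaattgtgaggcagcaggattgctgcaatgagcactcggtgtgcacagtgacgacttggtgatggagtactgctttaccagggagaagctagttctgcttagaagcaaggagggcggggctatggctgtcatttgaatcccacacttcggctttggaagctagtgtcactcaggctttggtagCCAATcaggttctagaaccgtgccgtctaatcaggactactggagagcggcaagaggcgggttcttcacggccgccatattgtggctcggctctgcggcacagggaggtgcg
All 5 members of this run hold a CCAAT box in the window shown, and Zfp869 holds 4 boxes. Zfp868, with 2 boxes, is the only member of the run with a positive log2 change (0.26). For comparison, these are the 4 windows of the chromosome 7 run.
Zfp628, chr7:4914967-4915266, plus strand: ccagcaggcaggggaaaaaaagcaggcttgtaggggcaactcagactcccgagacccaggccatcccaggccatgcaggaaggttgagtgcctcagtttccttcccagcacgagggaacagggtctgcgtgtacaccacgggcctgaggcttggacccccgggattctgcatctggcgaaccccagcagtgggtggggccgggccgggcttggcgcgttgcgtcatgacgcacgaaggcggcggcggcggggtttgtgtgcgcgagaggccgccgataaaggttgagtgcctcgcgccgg
Zfp579, chr7:4996052-4996351, minus strand: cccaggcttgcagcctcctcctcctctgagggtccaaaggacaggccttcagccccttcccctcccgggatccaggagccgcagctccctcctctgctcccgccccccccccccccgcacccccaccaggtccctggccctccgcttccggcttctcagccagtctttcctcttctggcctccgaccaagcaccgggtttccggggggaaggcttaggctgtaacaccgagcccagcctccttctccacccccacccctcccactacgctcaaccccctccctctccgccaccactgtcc
Zfp784, chr7:5038397-5038696, minus strand: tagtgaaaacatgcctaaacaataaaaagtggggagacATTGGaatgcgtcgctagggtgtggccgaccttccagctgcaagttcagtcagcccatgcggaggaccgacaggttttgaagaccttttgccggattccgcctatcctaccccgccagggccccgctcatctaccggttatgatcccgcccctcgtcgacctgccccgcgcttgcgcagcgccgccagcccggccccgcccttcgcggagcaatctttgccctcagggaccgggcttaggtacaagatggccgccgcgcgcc
Zfp580, chr7:5051282-5051581, plus strand: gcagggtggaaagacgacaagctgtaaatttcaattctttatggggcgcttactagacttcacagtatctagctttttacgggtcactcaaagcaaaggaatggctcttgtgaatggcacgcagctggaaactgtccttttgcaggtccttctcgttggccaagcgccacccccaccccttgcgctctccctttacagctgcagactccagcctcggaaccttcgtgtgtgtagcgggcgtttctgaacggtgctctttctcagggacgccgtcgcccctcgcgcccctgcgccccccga
In that run 1 of the 4 members with a window, Zfp784, holds the box. Zfp865, the only member of the run with a negative log2 change (-0.39), has no window. A box was found in 46.8% of the 237 windows of tested members, in 37.2% of the 12160 windows of all tested genes and in 37.4% of all 32851 windows. Members with a box (100 genes) had a median log2 change of -0.33 with 77 negative, and members without one (97 genes) had -0.21 with 66 negative. Among all tested genes the medians were 0.00 with and -0.02 without the box. The median CG dinucleotide count per window was 16 for tested members and 21 for all tested genes, and the GC content 57.7% and 61.3%. A match describes letters in the window and says nothing of whether a factor binds there.

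One longer motif was more frequent in member promoters than elsewhere. The motif ACTACA, 2 free bases and TCCC, which is known for the activator ZNF143 (mouse Zfp143, itself a member), was searched on both strands. It was present in 12.2% of member windows (29 of 237), 3.81% of windows of all tested genes and 1.81% of all windows. Sites of 8 of the 29 holding members are printed along the motif, in order of the gene's mean in scaled reads. They are a selection and need not be the 8 with the highest means. The motif is in capitals with 12 bases to either side, to show the bases around it. The capitals other than the 2 free bases agree because the sites were found by that match.
Zfp219, chr14:52019697-52019732, plus strand: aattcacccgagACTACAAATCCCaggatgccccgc
Zfp260, chr7:30095035-30095070, minus strand: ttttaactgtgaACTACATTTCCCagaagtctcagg
Zfp180, chr7:24081862-24081897, minus strand: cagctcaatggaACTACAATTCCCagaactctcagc
Zfp444, chr7:6172361-6172396, minus strand: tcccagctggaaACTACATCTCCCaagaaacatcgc
Zfp334, chr2:165388354-165388389, plus strand: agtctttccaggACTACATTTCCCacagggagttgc
Zfp146, chr7:30169848-30169883, plus strand: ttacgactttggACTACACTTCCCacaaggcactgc
Zfp358, chr8:3493101-3493136, plus strand: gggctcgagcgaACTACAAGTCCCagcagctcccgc
Zfp317, chr9:19621855-19621890, plus strand: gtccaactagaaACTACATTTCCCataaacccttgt
Of the 29 member genes with the motif 17 lie in runs, and their windows may share descent. Their median log2 change was -0.21 with 20 negative, and that of the 168 members with a window but no motif was -0.27. Zfp143 had 25.9, 26.6 and 12.1 scaled reads in controls and 24.1, 18.7 and 21.98 after MCAO, with overlapping groups and a log2 change of 0.08 (95% interval -0.78 to 0.93). The other motifs searched were the GC box GGGCGG (50.2% of member windows and 63.0% of windows of all tested genes), the ETS motif CCGGAAG (19.4% and 16.5%), the TATA box TATAAA (6.75% and 6.83%), the NRF1 motif GCGC, 1 free base and TGCGC (9.70% and 9.74%), the YY1 motif (2.95% and 2.28%), the cyclic AMP response element TGACGTCA (2.53% and 3.03%) and the STAT motif TTCCNGGAA (2.53% and 1.13%). Motifs can overlap each other within a window. None of the shares was tested.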

How the data were processed

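RNA from RiboTag precipitates of 6 mice, 3 control and 3 MCAO, was analysed from 1 deposited table. The deposited values are a normalised signal that the authors made by dividing read counts per gene by 1 factor per library. Values under 1 are listed as 1. Per the submitters' processing notes the build was mm10 and the tools listed, without roles, were DESeq2, HISAT2, CASAVA 1.8, R 3.3.1 and Partek 6.6. How reads were counted, the strand setting, any filter on genes and how technical replicates were joined are not stated. Division by each column's step gave whole reads, within 0.1 read, for 99.9% of values in control 1 and 100% in the other libraries. Replicate numbers follow record order and pair nothing, and the labels do not say more than that each library is 1 animal.

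Log2(value + 1) was fitted with limma 3.58.1 in R 4.3.3 (intensity trend, two-sided, Benjamini-Hochberg over 12549 genes averaging 10 or more, called at an adjusted p under 0.05). SE is the moderated standard error, and fold changes on this scale understate low genes. Counts recovered from the values were tested with edgeR 4.0.16 and DESeq2 1.42.0 as alternatives. The fit was tested on simulated data. The members, gene lists, families and motifs were chosen with earlier results of these data known. Named members are those called, the 6 most positive and 6 most negative with a mean of at least 20, the 6 with the most reads, and members of 4 role lists. A split by finger number and KRAB box was planned and not made, since no protein sequences were used here. Gene positions and promoter windows are from RefSeq, GRCm38.p6, with windows for 197 of the 238 tested members.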

Additional observations from a re-analysis of the deposited data

How the results depend on the processing

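The lower level of the Zfp genes kept its sign in each of the 18 alternatives. The median log2 change of the members was -0.34 with quantile normalisation, -0.27 to -0.22 with 1 library left out, and -0.28 to -0.21 in the others, and 69.3% to 79.4% of members were negative. Counts of called members moved more. Limma called 2 members with a pseudocount of 5, 0 with no intensity trend (46 at an unadjusted p under 0.05), 8 with library weights, 3 without control 2 and MCAO 2, and 0 to 1 with 1 library left out; edgeR and DESeq2 each called Zfp609 alone. The 8 were Zfp248, Zfp365, Zfp414, Zfp592, Zfp609, Zfp704, Zfp871 and Zfp948, and the 3 were Zfp592, Zfp609 and Zfp687. Of all genes 387 were called in the main fit, 433 with a pseudocount of 5 and 157 with no intensity trend. Library weights gave 1002, leaving out control 2 and MCAO 2 gave 559, and leaving out 1 library gave 144 to 304. By edgeR 520 were called and by DESeq2 549. KRAB corepressor genes called numbered 1 with library weights, 3 without control 2 and MCAO 2 and 0 to 1 with 1 library left out. The cause of these differences was not tested. The median member had 10 reads in MCAO 2, so small changes of single members were not detectable at this depth.

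Of 58 named members 21, all uncalled, changed sign in some alternative. The sign turned with quantile normalisation in Zfp521 (-0.0044), Zfp503 (-0.12), Zfp217 (-0.14), Zfp143 (-0.040). The sign turned with library weights in Zfp651 (-0.036), Zfp521 (-0.086), Zfp503 (-0.46), Zfp110 (0.48), Zfp217 (-0.054), Zfp622 (-0.14), Zfp326 (0.013), Zfp746 (-3.9e-05). The sign turned by edgeR in Zfp521 (-0.0094), Zfp503 (-0.33), Zfp110 (0.23), Zfp217 (-0.020), Zfp711 (0.035), Zfp326 (0.0069), Zfp608 (0.022). The sign turned by DESeq2 in Zfp503 (-0.22), Zfp110 (0.13), Zfp217 (-0.018), Zfp608 (0.010). The sign turned without control 2 and MCAO 2 in Zfp651 (-0.22), Zfp521 (-0.092), Zfp503 (-0.98), Zfp110 (0.48), Zfp369 (0.20), Zfp217 (-0.22), Zfp598 (0.12), Zfp622 (-0.35), Zfp326 (0.22), Zfp207 (0.0038), Zfp608 (0.014). The sign turned with each library centred on its median over all genes, added after seeing the data in Zfp651 (-0.025), Zfp217 (-0.012). With 1 library left out, values crossed 0 in Zfp110 (-0.37 to 0.30), Zfp143 (-0.28 to 0.26), Zfp217 (-0.24 to 0.19), Zfp263 (-0.15 to 0.37), Zfp326 (-0.32 to 0.091), Zfp384 (-0.29 to 0.14), Zfp395 (-0.37 to 0.026), Zfp423 (-0.31 to 0.071), Zfp488 (-0.66 to 0.050), Zfp503 (-0.62 to 0.53), Zfp521 (-0.17 to 0.29), Zfp536 (-0.43 to 0.026), Zfp598 (-0.22 to 0.13), Zfp608 (-0.084 to 0.093), Zfp622 (-0.046 to 0.44), Zfp651 (-0.18 to 0.13), Zfp706 (-0.12 to 0.010), Zfp711 (-0.55 to 0.16). No paired analysis was possible because the labels give the libraries no shared replicate numbers.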
